A study of Homo sapiens with 2 samples.

Results

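The RNAs described here are 7SK, 7SL, the Y RNAs and the RNA subunits of RNase P and RNase MRP, abundant short noncoding RNAs made by RNA polymerase III. Their members were the rows of the deposited expression table whose gene symbol was RN7SK, RN7SL1, RN7SL2, RMRP, RPPH1, RNY1, RNY3 or RNY4. Of these 8 symbols, 6 had a row, and RN7SL1, RMRP and RPPH1 had 2 rows each, which gave 9 rows of 13075 in all. RN7SL2 has no row under its own symbol, but its Ensembl identifier (ENSG00000274012.1) is listed as Metazoa_SRP, and it is given below as a copy. RNY4 (GRCh38 chromosome 7, 148963315 to 148963410, plus strand), at 96 bases the shortest of the 8, was not analysed here.

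The cells were HEK293, a line from human embryonic kidney, at passage 15. The RIP (RNA immunoprecipitation) library came from cells transfected with TOP3B that carries a FLAG tag and the R338W substitution, and their lysate was pulled down with the monoclonal anti-FLAG antibody M2. The input library came from cells carrying the same transfected protein, with no antibody step. TOP3B is a topoisomerase that acts on DNA and on RNA, and a native RIP recovers complexes without crosslinking. Each group held 1 library, so no value below has a replicate check, no p-value was computed, and a difference is one between 2 libraries. The cells overexpress the tagged protein, and a RIP from cells without it was not analysed here. For the bait TOP3B the transcript stood at 30666 FPKM in the RIP, against 15062 FPKM in the input.

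RNA polymerase III makes these RNAs from short genes, and each works inside a protein complex. 7SK holds the elongation factor P-TEFb in an inactive form in the nucleus, 7SL is the scaffold of the signal recognition particle that brings secreted proteins to the endoplasmic reticulum, RNase P trims the 5′ ends of transfer RNA precursors, RNase MRP acts on the precursor of ribosomal RNA, and Y RNAs bind the proteins Ro60 and La.

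FPKM is the number of fragments per kilobase of effective transcript length and per 1000000 fragments of the library, so levels of different genes are compared per length. The effective length is the number of positions at which a fragment can start. The steps between low FPKM values gave estimated depths of 24700000 fragments in the RIP, against 15000000 in the input, with mean fragment lengths of 168 and 165 bases. At these estimates the values of 77.8% of 180 low genes of the RIP, and of 73.3% of 240 of the input, were within 0.1 of a whole number of fragments. The depths and fragment lengths were fitted to these same values, so the percentages describe the fit and do not check it. The fragment numbers below are thus estimates. Of the embryonic kidney, epithelial and neural-type markers chosen for HEK293, 6 of 8 were listed (KRT8, KRT18, VIM, NEFL, NEFM and ENO2). PAX2 and LHX1, of the embryonic kidney and epithelial list, had no row. None of 9 blood, liver and kidney tubule markers had a row.

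All 9 rows were lower in the RIP than in the input, and the Y RNAs had the lowest ratios. Ratios are log2((RIP + 1)/(input + 1)), 1 FPKM being the pseudocount. Over the 9 rows the median ratio was -0.84, with a range of -1.43 to -0.39, while the median of all 11990 genes with at least 5 FPKM in 1 library was 0.13. Of the 9 rows, 4 lay below the input by 2-fold or more, a limit that 300 of all 11990 genes passed (2.5%), and 0 were higher by as much, against 588 of all genes (4.9%). Below 0 were 9 of the 9 rows and 4941 of all genes (41.2%). The 4 rows past the limit were RNY3, RNY1, the main row of RPPH1 and the second row of RN7SL1. Of 88 genes with at least 1000 FPKM in the input, members included, 71 were below 0 (80.7%) and 16 were at least 2-fold lower (18.2%). A choice by the input value favours ratios below 0, and the count depended on it and on scaling: in TPM 51 of the 88 were below 0, with a median of -0.04, and of 88 genes chosen by at least 1000 FPKM in the RIP 55 were below 0 as deposited and 38 in TPM (the TPM counts and the choice by the RIP were added after seeing the data).

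The level of these ratios depended on how the libraries were scaled. Each scaling shifted all 9 rows by nearly the same amount, so their order was kept by construction. Centring on the median gene shifted every ratio by -0.13, and equal sums over genes outside the abundant noncoding classes shifted them by -0.17. Rescaling to TPM, which gives both libraries the same sum, shifted them by 0.47. Under that scaling 0 of the 9 rows passed the 2-fold limit and 8 of 9 were still below 0. The median was -0.37 over the rows and 0.56 over all 11990 genes. At least 2-fold lower were 4 of the 9 rows after centring and 6 with equal sums outside the abundant classes. The split of all genes, 588 higher and 300 lower as deposited, was 365 and 450 after centring, 312 and 491 without the abundant classes, and 2428 and 127 in TPM. Values are shares of a library, so a lower recovery of one RNA and a higher recovery of the others cannot be told apart, nor can fewer cells and less RNA per cell.

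**Figure D1:**
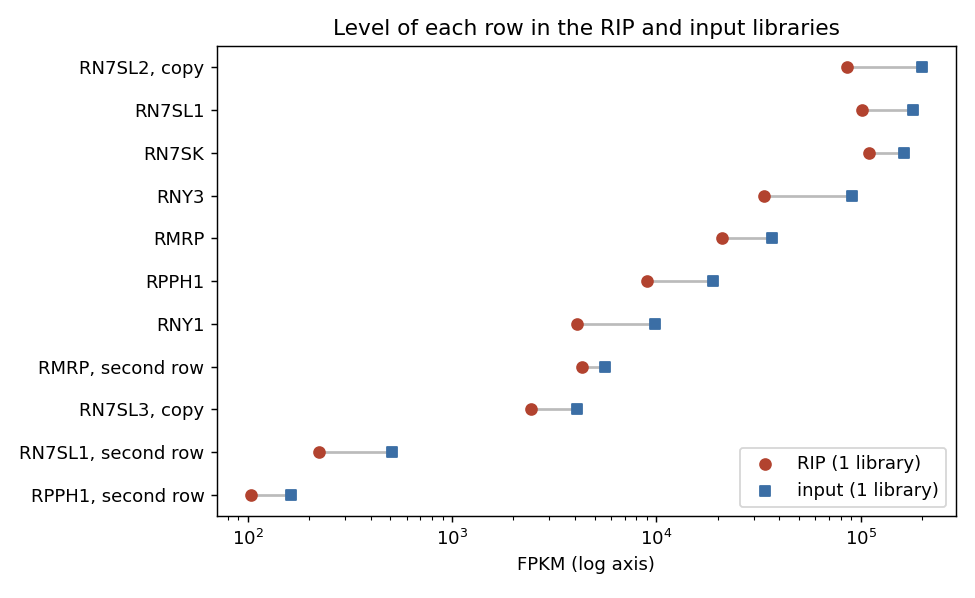
FPKM on a log axis for the 9 rows and for the copies RN7SL2 and RN7SL3, with circles for the RIP and squares for the input (1 library each). The RIP lies left of the input in all 11, and RN7SK, at 109332 FPKM in the RIP, is the highest RIP value.

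RN7SK was the highest single row of the RIP and lay nearest to the input among the 6 loci. RN7SK (ENSG00000202198.1, chromosome 6, 52995620 to 52995950, plus strand, 331 bases, GRCh38) stood at 109332 FPKM in the RIP, against 162570.1 FPKM in the input. Its rank among all genes was 1 in the RIP, against 3 in the input. The ratio was -0.57, a RIP level at 67.3% of the input. About 442333 fragments lay behind these values in the RIP, against 409875 in the input (17920 and 27240 per 1000000). On fragments per 1000000 the log2 ratio was -0.60, with an exact 95% binomial interval of -0.61 to -0.60. All intervals here cover counting error only, take the estimated depth as known, and treat fragments as independent molecules. The ratio of RN7SK was above those of 1264 of 11990 genes (10.5%).

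The first 120 bases of 7SK are shown because this is the part to which HEXIM1, the protein that inhibits P-TEFb, is known to bind, at GAUC repeats. Sequences are those of GENCODE release 29 on GRCh38, written as DNA. Capitals mark each GATC, which reads the same on both strands.
RN7SK: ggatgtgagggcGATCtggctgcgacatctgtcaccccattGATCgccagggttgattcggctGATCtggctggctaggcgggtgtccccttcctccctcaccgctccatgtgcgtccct
GATC starts at bases 13, 42 and 64. Of 190374 annotated transcripts of at least this length, 60.5% hold GATC in their first 331 bases and 7.42% hold it at least 3 times, so the match is a description of the sequence. The RNA ends in 3 T, and 2.8% of 206694 transcripts end in 3 T or more.

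Only 3 rows listed as copies of 7SK were measured, all of them low. RN7SKP203 stood at 31.4 FPKM in the RIP, against 31.7 in the input, RN7SKP255 at 11.4 and 15.5, and RN7SKP80 at 2.82 and 12.3. Their sum, 45.6 FPKM in the RIP, against 59.6 in the input, is small beside that of RN7SK. The median ratio of the 3 was -0.42, and RN7SKP80 was at least 2-fold lower. These copies, and RN7SL4P and RN7SL15P below, are outside the rule for named genes and were chosen after their values were seen.

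The transcripts of the proteins that hold 7SK lay close to the input. Of 7 transcripts of 7SK particle and P-TEFb proteins, 0 passed the 2-fold limit in either direction, 3 were above 0 and 4 below, and the median was -0.10. HEXIM2, an inhibitor of P-TEFb, was the highest at 5.0 FPKM in the RIP, against 4.42 in the input (0.15). It was counted only because its RIP value reached the floor of 5 FPKM. CCNT2, a cyclin of P-TEFb, was the lowest at 24.9 and 30.6 (-0.29).

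7SL was listed under several near-identical genes, and their sum was above RN7SK in both libraries. RN7SL1 (ENSG00000276168.1, chromosome 14, 49586580 to 49586878, plus strand, 299 bases) stood at 101209.5 FPKM in the RIP, against 181363 FPKM in the input, a ratio of -0.84 at 55.8% of the input. It ranked second in both libraries. About 332744 fragments lay behind it in the RIP, against 372665 in the input. A second row under the same symbol (ENSG00000283029.1, named AL139099.4 by GENCODE) covers the same bases plus 1 base at the 5′ end and stood at 223 FPKM in the RIP, against 509.7 in the input. It held 0.22% of the summed FPKM of the locus in the RIP, against 0.28% in the input.

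RN7SL2 (ENSG00000274012.1, chromosome 14, 49862550 to 49862849, minus strand, 300 bases) was measured at 85998 FPKM in the RIP, against 199593 FPKM in the input. It was the highest single row of the input and ranked 3 in the RIP. Its ratio of -1.21 was lower than that of RN7SL1, and the pair took opposite orders: RN7SL1 was the higher in the RIP and RN7SL2 in the input. The next copy, RN7SL3 (chromosome 14, 49853616 to 49853914, minus strand), was measured at 2437 FPKM in the RIP, against 4094 in the input (-0.75).

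RSEM, named in the submitters' processing notes, divides a fragment that matches several genes between them by estimate, so the single values of these copies are uncertain and their sum is firmer. RN7SL1 and RN7SL2 together, with the second row, stood at 187431 FPKM in the RIP, against 381466 FPKM in the input, a ratio of -1.03. With RN7SL3 the ratio was -1.02. Summed, 7SL was thus just past the 2-fold limit as deposited, whereas RN7SL1 alone was not. The TPM scaling, which shifted ratios by 0.47, would bring the sum inside the limit. Centring and equal sums outside the abundant classes, with shifts of -0.13 and -0.17, would move it further past. RN7SL2 also lies within the gene AL627171.2 on the same strand, whose value is not given here.

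Of 24 rows that are further copies of 7SL, RN7SL2 and RN7SL3 included, 5 had at least 50 estimated fragments in 1 library, and 4 of these were below 0. The other 19 held at most 36 fragments in the RIP, against 34 in the input, where their length is known. Of these 8 were lower by 2-fold or more, each with 3 to 8 fragments in the RIP and past the floor of 5 FPKM through the input alone, so no count or median over the copies is read here. Below RN7SL3 the highest input value was that of RN7SL4P, at 200 FPKM in the RIP, against 457 in the input. The exception among the 5 was RN7SL15P (chromosome X, 41345576 to 41345876, minus strand), measured at 106 FPKM in the RIP, against 21.1 in the input, or about 354 and 43.9 fragments. It lies within DDX3X, a helicase gene on the other strand that stood at 399 FPKM in the RIP, against 355 in the input. The library kit keeps strand, but whether the counting used it is not given in the sources used here, so reads of a gene and of a partner on the other strand may not be told apart.

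**Figure D2:**
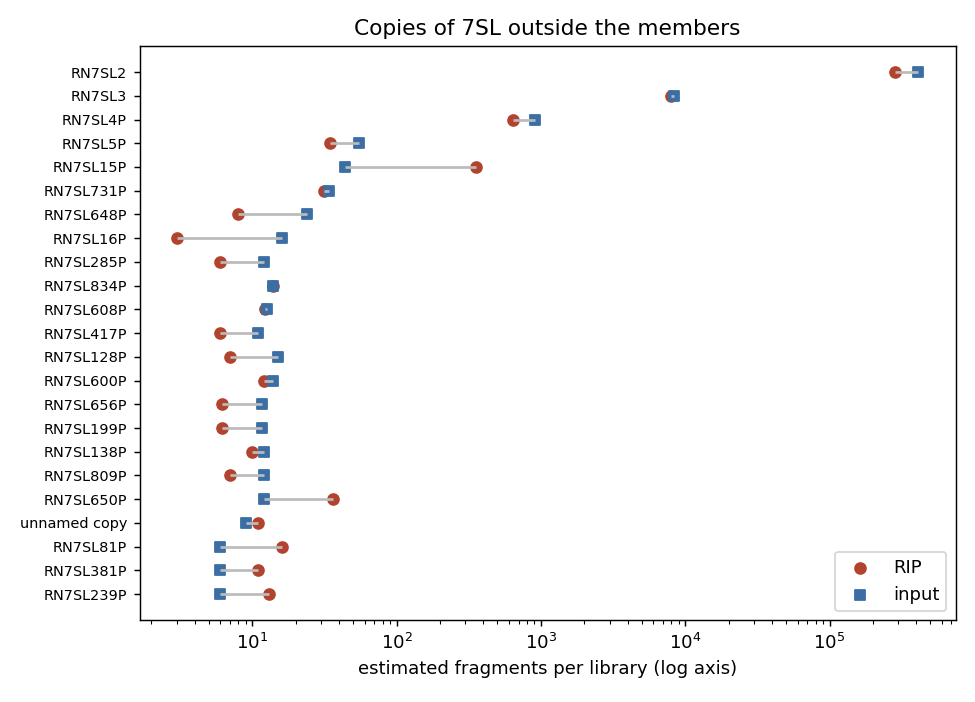
Estimated fragments per library, on a log axis, for the copies of 7SL outside the members, with circles for the RIP and squares for the input. RN7SL2 exceeds the next copy, RN7SL3, by more than an order of magnitude, and RN7SL15P stands out to the right in the RIP at about 354 fragments.

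The transcripts of the particle's proteins lay within the limit. Of 8 transcripts of signal recognition particle and receptor proteins, 0 passed 2-fold, 4 were above 0 and 4 below, with a median of -0.21. The receptor subunits lay at the ends. SRPRA, listed as SRPR, stood at 47.2 FPKM in the RIP, against 23.2 in the input (1.00). It was just under the limit only through the pseudocount of 1 FPKM. SRPRB stood at 10.5 and 19.4 (-0.82).

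The RNAs of RNase MRP and RNase P are related in fold and share proteins, and RPPH1 had the lower ratio. The main row of RMRP, the RNase MRP RNA (ENSG00000277027.1, chromosome 9, 35657754 to 35658017, minus strand, 264 bases), was measured at 20869 FPKM in the RIP, against 37033 FPKM in the input, a ratio of -0.83 at 56.4% of the input. A second row (ENSG00000269900.3, 35657751 to 35658018, 268 bases) stood at 4309.8 FPKM in the RIP, against 5627 in the input, a ratio of -0.39, the nearest to 0 of the 9 rows. It was above 0, at 0.09, on the TPM scale.

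The longer RMRP row is printed to show what separates the rows. Capitals mark the bases that the 264-base row lacks, 1 at the 5′ end and 3 at the 3′ end.
RMRP: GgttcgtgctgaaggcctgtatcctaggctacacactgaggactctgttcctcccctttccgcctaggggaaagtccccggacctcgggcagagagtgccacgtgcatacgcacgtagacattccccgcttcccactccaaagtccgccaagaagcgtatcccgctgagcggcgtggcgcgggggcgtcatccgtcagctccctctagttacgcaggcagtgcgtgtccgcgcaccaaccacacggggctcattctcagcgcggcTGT
Fragments of the shared bases can be given to either row. The second row took 17.1% of the summed FPKM of the locus in the RIP, against 13.2% in the input, so the division between the rows differed between the libraries. Summed, RMRP stood at 25179 FPKM in the RIP, against 42660 in the input, a ratio of -0.76, from about 62593 and 66439 fragments.

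RPPH1, the catalytic RNA of RNase P (ENSG00000277209.1, chromosome 14, 20343075 to 20343407, minus strand, 333 bases), was measured at 8963 FPKM in the RIP, against 19029.97 FPKM in the input. The ratio was -1.09, a RIP level 2.12-fold lower. About 36693 fragments lay behind it in the RIP, against 48550 in the input. On fragments per 1000000 the log2 ratio was -1.12, with an interval of -1.14 to -1.10 that does not reach the interval of RMRP's locus, -0.82 to -0.78. Between RPPH1 and RMRP the difference is thus beyond counting error, but its spread between experiments was not measured. The second row under the symbol (ENSG00000259001.3, 638 bases) runs 278 bases past the 5′ end and 27 past the 3′ end of the main row and overlaps the start of PARP2 on the other strand. It stood at 104 FPKM in the RIP, against 163 in the input (-0.65), and PARP2 at 45.6 and 31.1. With both rows summed RPPH1 had a ratio of -1.08.

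The ends of RPPH1, 60 bases each, are shown because they pair with each other in the known fold of RNase P RNA. Capitals mark the 9 bases at each end that are complementary, with G-T pairs allowed.
RPPH1, bases 1 to 60: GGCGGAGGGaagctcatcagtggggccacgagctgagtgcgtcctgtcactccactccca
RPPH1, bases 274 to 333: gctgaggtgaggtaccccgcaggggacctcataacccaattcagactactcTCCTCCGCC
No run of T ends this RNA, in contrast to 7SK and to RNY1 below.

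Of 11 listed RNase P and RNase MRP proteins 10 had a row, 0 passed the limit in either direction, 3 were above 0 and 7 below, and the median was -0.13. POP1, the largest shared subunit, stood at 16.5 FPKM in the RIP, against 8.36 in the input (0.91), and RPP14 at 5.79 and 11.4 (-0.86).

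The Y RNAs were the lowest of the set in the RIP relative to the input. RNY3 (ENSG00000202354.1, chromosome 7, 148983755 to 148983856, plus strand, 102 bases) stood at 33569 FPKM in the RIP, against 90297 FPKM in the input, a ratio of -1.43 at 37.2% of the input. RNY1 (ENSG00000201098.1, chromosome 7, 148987136 to 148987248, minus strand, 113 bases) was measured at 4083 FPKM in the RIP, against 9884 FPKM in the input, a ratio of -1.28 at 41.3%. Both were at least 2-fold lower, and RNY3 kept rank 4 and RNY1 rank 19 in both libraries. Only 132 of 11990 genes (1.1%) had a lower ratio than RNY3, and 175 (1.46%) a lower one than RNY1.

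The sequence of RNY1 is shown for its ends. Capitals mark the 8 bases at each end that are complementary, with G-T pairs allowed, and form part of the lower stem of the RNA, the part bound by Ro60.
RNY1: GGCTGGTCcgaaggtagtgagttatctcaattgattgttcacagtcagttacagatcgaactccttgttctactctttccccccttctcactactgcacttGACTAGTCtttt
RNY1 ends in 4 T, the run at which polymerase III stops and the tail that La binds, and 1.25% of 206694 transcripts end in 4 T or more. RNY1 and RNY3 lie on opposite strands of the same stretch of chromosome 7.

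The Y RNA levels rested on few fragments. The mean fragment was longer than either RNA, so hardly any start position remained: the effective length of RNY3 was 1.09 bases in the RIP, against 1.05 in the input, and that of RNY1 2.47 and 2.42. A single fragment of RNY3 was worth 37.3 FPKM in the RIP, against 63.5 in the input. The RIP figure came from the step at the same length, and the input figure from a curve through neighbouring lengths. The intervals take these figures as known. RNY3 thus stood on about 901 fragments in the RIP (exact 95% Poisson interval 843.1 to 961.8) and 1422 in the input (1349 to 1498). RNY1 stood on about 249 in the RIP (219 to 282) and 360 in the input (323.8 to 399.2). Per 1000000 fragments this was 36.5 and 94.5 for RNY3, and 10.1 and 23.9 for RNY1.

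The lower level in the RIP was also present in fragments. These were computed from the FPKM values with the fitted effective lengths and depths, so they are not a second measurement. On fragments per 1000000 the log2 ratio of RNY3 was -1.37 (interval -1.50 to -1.25) and that of RNY1 -1.25 (-1.49 to -1.01). The intervals overlap each other, and that of RNY1 also covers the ratio of RPPH1, so these neighbours in the order are not separated by their counts. In the order of fragment ratios the loci ran RNY3, RNY1, RPPH1, RN7SL1, RMRP and RN7SK, the same as in FPKM.

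The transcripts of proteins that bind Y RNAs lay within the limit. Of 7 listed Ro, La and other Y RNA-binding proteins 6 had a row, 0 passed 2-fold, 4 were above 0 and 2 below, and the median was 0.31. NCL, or nucleolin, was the highest at 790 FPKM in the RIP, against 456 in the input (0.79), and YBX1, a cold-shock domain protein, the lowest at 261 and 457 (-0.80). Ro60 itself, listed as TROVE2, is not at an end of the list.

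The 15 listed copies of Y RNAs were close to nothing. No copy exceeded 3 estimated fragments in either library, 2 were listed at 0 in both, and 10 in 1 of them. Of 13 past the floor 8 were higher by 2-fold or more in the RIP and 3 lower, counts that rest on single fragments, since 1 fragment of an RNA this short passes the floor.

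Ratios within a library are free of any scaling between libraries. The percentages below compare levels per length (FPKM) with RN7SK in the same library, overlapping rows summed. RNY3 stood at 30.7% of RN7SK in the RIP, against 55.5% in the input, and RNY1 at 3.74% and 6.08%. RPPH1 stood at 8.29% and 11.8%, RN7SL1 at 92.8% and 112%, and RMRP at 23.0% and 26.2%. All 5 loci were thus lower against RN7SK in the RIP than in the input, by between -0.19 (RMRP) and -0.86 (RNY3) on the log2 scale. This follows from RN7SK having the highest ratio of the 6 loci, so the direction depends on the reference chosen. In fragments, which are not per length, RNY3 was 0.204% of RN7SK in the RIP, against 0.347% in the input, although its FPKM exceeded that of RMRP.

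**Figure D3:**
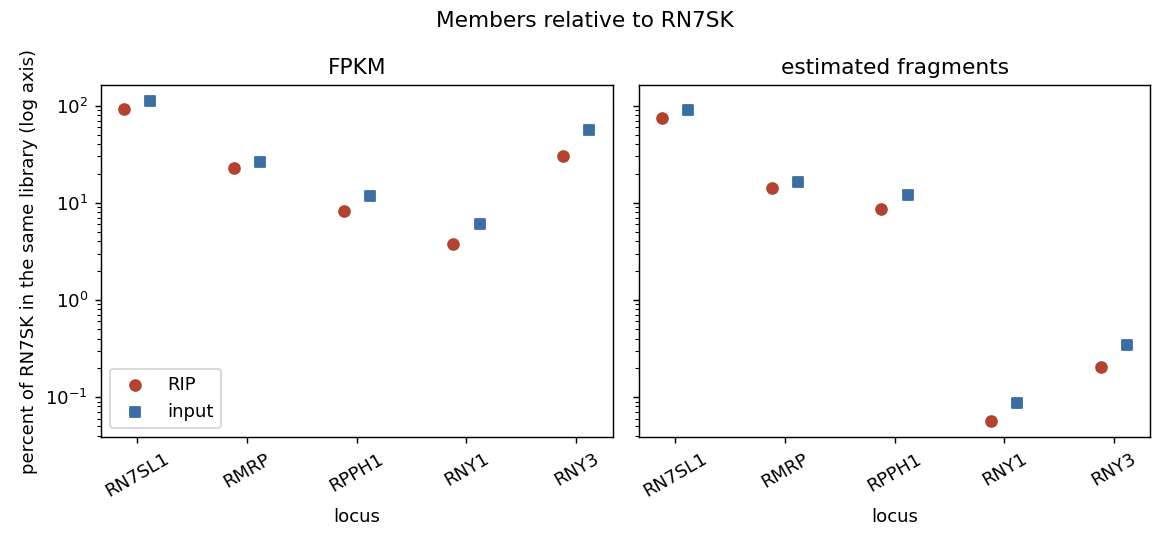
Level of each locus as a percentage of RN7SK in the same library, on a log axis, in FPKM (left) and in estimated fragments (right), with circles for the RIP and squares for the input. The circle lies below the square at every locus, which follows from RN7SK having the highest ratio of RIP to input. In the RIP RNY3 is at 30.7% in FPKM and 0.204% in fragments.

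The share of a library that these RNAs took depended on the quantity. The 9 rows took 25.9% of the FPKM sum of the RIP, against 33.5% in the input, but 3.56% and 5.99% of estimated fragments. With RN7SL2 and RN7SL3 the shares of FPKM were 34.0% and 47.0%, and those of fragments 4.74% and 8.79%. The Y RNAs together held the smallest share of fragments: RNY3 had 36.5 and RNY1 10.1 fragments per 1000000 in the RIP, beside 17920 for RN7SK.

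Other short RNAs were also lower in the RIP. Of rows with 1 transcript of 100 to 350 bases and at least 50 estimated fragments in 1 library, 73 distinct ones lay outside the members, 6 of them copies of 7SL or 7SK. Their median ratio was -0.74, with 65 of 73 below 0, 23 at least 2-fold lower and 2 at least 2-fold higher. The 6 member loci had a median of -0.96, with 6 of 6 below 0 and 3 at least 2-fold lower. RNY3 lay above 10 of the 73, RNY1 above 11, RPPH1 above 20, RN7SL1 above 26, RMRP above 34 and RN7SK above 48. The members thus lay within the range of the short RNAs, most of them in its lower part. Without the 6 copies the other 67 had a median of -0.72. Of the 5 other short RNAs of at most 120 bases all were below 0 and 2 were at least 2-fold lower. No test set the members apart from the other short RNAs, and the part that length plays in the ratios was not tested.

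**Figure D4:**
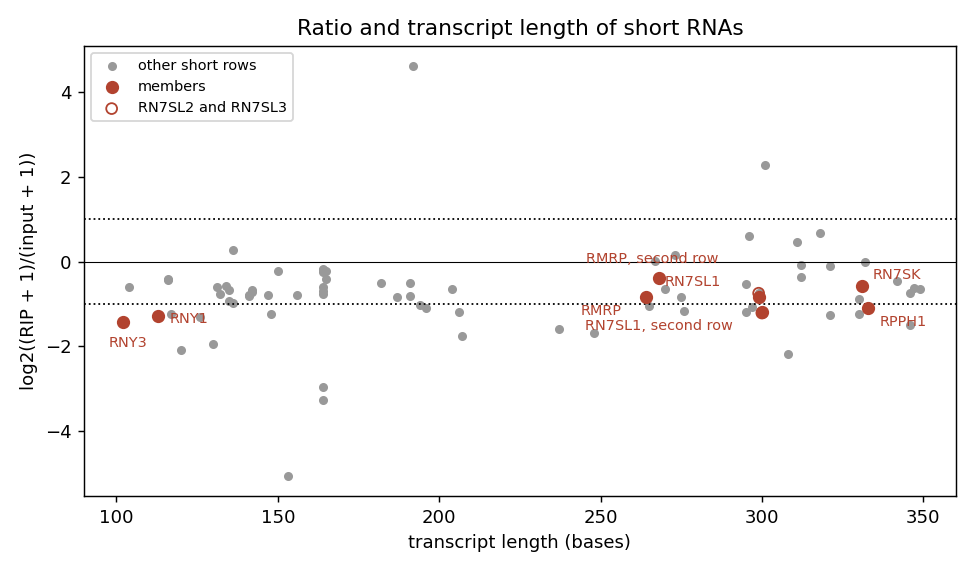
The log2 ratio against transcript length for the member rows of at most 350 bases (filled red), RN7SL2 and RN7SL3 (open red) and 73 other short RNAs (grey); dotted lines mark the 2-fold limit. The members lie between -1.43 and -0.39, inside the range of the grey points, most of which are also below 0.

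**Figure D5:**
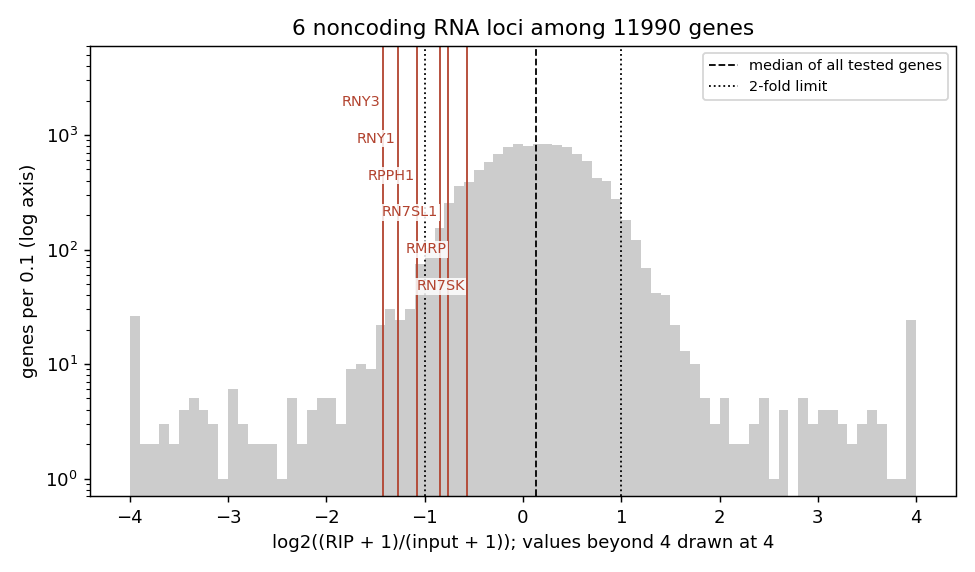
Histogram of the log2 ratios of 11990 genes, with counts on a log axis and values beyond 4 drawn at 4. Red lines mark the 6 member loci, all left of the median of 0.13, and RNY3, RNY1 and RPPH1 lie past the 2-fold limit.

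The other RNAs of polymerase III mostly held few fragments, and most small nuclear RNAs of polymerase II were lower in the RIP. Of 12 further polymerase III RNAs 7 had a row, with 3 distinct pairs of values. All were below 0, 1 of them at least 2-fold lower, but their median of -0.79 is that of the U6 rows and rests on almost no fragments. RNU6ATAC, of the minor spliceosome, stood at 381 FPKM in the RIP, against 953 in the input (-1.32). About 49.5 fragments lay behind it in the RIP, against 76.7 in the input. VTRNA2-1, a vault-like RNA, was nearest to 0 at 50.7 and 71.5 FPKM (-0.49), from about 7.4 and 6.3 fragments. The 5 rows of U6 copies shared 1 pair of values, 10.8 and 19.3 FPKM, which together stood for about 2.1 and 2.3 fragments. Of 14 rows of polymerase II small nuclear RNAs 13 were below 0 and 3 at least 2-fold lower, with a median of -0.69. RNU1-1, of U1, was the lowest at 1743 FPKM in the RIP, against 16738 in the input (-3.26), although near-identical copies make this row uncertain. It was followed by RNU5E-1 at 3134 and 13411 (-2.10) and RNU5F-1 at 608 and 1435 (-1.24), and RNU5D-1 was the highest at 243 and 225 (0.11). RNY3 thus lay between RNU5E-1 and RNU6ATAC.

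The messenger RNAs of the polymerase that makes these RNAs had medians above 0. Of 11 subunits specific to polymerase III, 1 was at least 2-fold higher and 0 lower, 8 were above 0 and 3 below, and the median was 0.38. POLR3D stood at 28.3 FPKM in the RIP, against 11.7 in the input (1.20), and POLR3K was the lowest at 13.3 and 18.5 (-0.45). Of 17 transcription factors of polymerase III 15 passed the floor and 0 were past 2-fold. Among the 15, 10 were above 0 and 5 below, with a median of 0.31. Those under the floor were below 0 (-0.24 and -0.16). SNAPC4, of the complex that binds the promoters of 7SK and RNase P RNA, was the highest at 12.7 FPKM in the RIP, against 6.62 in the input (0.84), and SNAPC5 the lowest at 27.4 and 33.9 (-0.30). These medians stand beside 0.13 over all genes and 0.15 over 10513 protein-coding genes.

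The genes most like each member were taken from 81 others with at least 1000 FPKM in the input, by Euclidean distance in log2 FPKM over the 2 libraries. RN7SK and RN7SL1 had RN7SL2 as the nearest (distances 0.46 and 0.27), and then TOP3B at 3.89 and 3.98. The main row of RMRP was nearest to RNU2-2P (1.02), a U2 RNA, and RNU1-27P (1.05), and its second row to SNORD3A (0.42), the U3 RNA, and MALAT1 (0.50), a nuclear long noncoding RNA. RPPH1 was nearest to RNVU1-7 (0.51), a variant U1 RNA, and RNU2-2P (0.56). RNY1 was nearest to SNORD3A (0.40) and RNU5E-1 (0.58), and RNY3 to RN7SL2 (1.78) and RNU2-2P (2.45). With 2 libraries, such a distance compares little more than abundance.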

How the data were processed

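RNA was measured in 1 RIP and 1 input library of transfected HEK293 cells, grouped by their titles. Per the submitters' processing notes, cutadapt 1.18, Trimmomatic 0.3, STAR 2.6.1, RSEM 1.2.31 and genome build hg38 were used. Not given in the sources used here are settings, annotation release, use of strand and filters. The authors deposited 1 value per gene and library, whose unit the table does not name. It was taken as FPKM, because the deposited values sum to 1090243 (RIP) and 1512049 (input), above TPM, and lie on steps that depend on transcript length. FPKM divides by effective length, which inflates RNAs shorter than the fragments, and by the library total, so abundant RNAs lower all others.

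Lengths, coordinates and sequences came from GENCODE release 29 (GRCh38), matched by Ensembl identifier for 12983 of 13075 genes. The sequences of RNY3, RN7SL1 and RN7SL2 are not reported here. Depth and the FPKM worth of 1 fragment at each length were estimated from genes with 1 transcript and at most 12 fragments. The input depth was bounded to between 10000000 and 20000000 because multiples of a depth also give whole steps. The search for the RIP depth was bounded too. The spread of the steps about the fit was 1.56% in the RIP, against 1.33% in the input. Fragment numbers have exact 95% Poisson intervals and their ratios exact binomial ones, for counting error only. The procedure was tested on simulated data. For the depths these came from the same model of fragment lengths as the fit, so the test cannot check that model.

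Ratios were log2((RIP + 1)/(input + 1)), which understates low genes. All genes with at least 5 FPKM in 1 library were counted past 2-fold. With 1 library a group there was no test. The named genes were all members, their copies with at least 1000 FPKM in the input, the genes past 2-fold and the highest and lowest of each partner list, and the 2 genes nearest to each member. Members and lists were chosen with earlier results of these data known. Alternatives were other pseudocounts, floors, fold limits and scalings, copies summed, and, chosen after seeing the data, overlapping rows summed and fragments in place of FPKM. Calculations used Python 3.11.15, numpy 2.4.6, scipy 1.17.1, pandas 2.3.3 and matplotlib 3.10.9.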

Additional observations from a re-analysis of the deposited data

How the results depend on the processing

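Of 72 values of single member rows under the alternatives, 44 stayed within the counting interval of the value reported, 27 moved and 1 changed sign. The sign changed for the second row of RMRP, at 0.087 in TPM. Every value stayed under the other pseudocounts and floors, which can hardly move rows this high. In TPM no row stayed, and with equal sums outside the abundant classes only RNY1 did. After centring only RNY1 and the second row of RN7SL1 stayed. The members' median log2 ratio, -0.84 as deposited, was -0.97 after centring on the median gene, -1.02 with equal sums outside the abundant RNA classes, -0.37 in TPM, and -0.96 with overlapping rows summed (chosen after seeing the data). The median of all genes was -0.036 with equal sums outside the abundant classes and 0.558 in TPM. Of the 9 rows, 4 were 2-fold lower as deposited, 4 after centring, 6 with equal sums outside the abundant classes and 0 in TPM. As deposited, 7 were past 1.5-fold and 0 past 4-fold. The members' share was 3.56% of the RIP and 5.99% of the input in fragments.

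The counts of all genes lower and higher were 181 and 300 with a pseudocount of 5, 157 and 352 with a floor of 20 FPKM, 127 and 2428 in TPM, 491 and 312 with equal sums outside the abundant classes, 1222 and 2386 at 1.5-fold, and 84 and 79 at 4-fold. After centring 365 were higher, and among genes with at least 1000 FPKM in the input 16 were lower. The cause of these changes was not tested beyond the construction of each setting. TMM and DESeq2 scaling, meant for counts, was not run. No paired analysis was possible because there was 1 library of each kind, and none could be left out. Low fragment numbers limit RNY1 and RNY3, whose effective lengths are so short that 1 fragment of RNY3 is worth 37.3 FPKM in the RIP, against 63.5 in the input.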
